A study of Mus musculus with 3 samples.

Results

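The genes described here are the families that time the cell cycle and license DNA for replication. They were chosen by gene symbol: the A, B, D and E cyclins, the Cdk kinases, Cdc6, Cdc7, Cdc20, Cdc25 and Cdc45, the Mcm and Orc subunits, the E2f factors, and the Cenp, Aurk, Bub, Plk and Kif genes. The symbols matched 127 probe sets (groups of array probes for 1 transcript), which named 123 of the 22087 genes measured. Where a gene had more than 1 probe set, as 4 members did, the probe set with the highest mean was kept. Members were assigned to phases by gene name, 16 to G1, 18 to S phase and 49 to mitosis. These are labels of families, and some members act in another phase. Licensing genes, which work in G1, are counted under S, and Ccna2, Plk4 and Cenpj under mitosis. The remaining 15 Cdk genes and 25 kinesins were assigned to no phase and are described apart, although some of them, such as Cdk7 and Kif2a, also act in the cycle. Ccne2 and Cenpu, whose probe sets name a second gene as well, and Ccnb1 were not analysed here.

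The data come from 1 group of 3 samples, numbered 1 to 3, of mouse tumour stroma with the genotype label Dicer1 +/-. Live cells lacking PECAM1 and tdTomato were sorted from digested tumours, and total RNA was read on 1 Affymetrix array per sample. The series title sets ASD+/- against ASD+/+ tumours, and the labels do not explain ASD, what drives tdTomato, the age of the mice or whether each sample came from its own animal. ASD+/+ stroma was not analysed here, so no genotypes are compared, and every SD is the spread between these 3 samples. Values are log2 intensities as deposited, on which a difference of 1 is 2-fold. Probes differ in brightness, so a gene is compared with itself across samples and not with other genes.

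In the cell cycle, D cyclins with Cdk4 and Cdk6, then E cyclins with Cdk2, drive cells out of G1 by releasing E2F factors from the retinoblastoma proteins. In G1 the origin recognition complex (Orc), with Cdc6, loads the ring of Mcm2 to Mcm7 onto DNA, which licenses an origin. Cdc7 and Cdc45 then turn the ring into a moving helicase. Cdk1 with cyclins A and B drives mitosis, in which Aurora and Polo-like kinases, Bub checkpoint proteins, centromere proteins and kinesin motors attach and separate chromosomes. Many of these genes are transcribed mainly in dividing cells, under E2F in late G1 and under B-Myb, FoxM1 and the MuvB complex later. A stroma sort holds many cell types, so the values are sums over dividing and resting cells.

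Promoter sequences are shown first for the members with the widest spread between samples, since the motifs of cell cycle promoters differ by phase. The set is the 2 widest members of each phase with a listed promoter, and Cdk1. Each line gives the 250 bases before the RefSeq start, 5′ to 3′ on the gene's strand, in build GRCm38.p6. Capitals mark matches on either strand to 3 motifs. These are the CCAAT box (CCAAT), which NF-Y binds, the CHR element (TTTGAA or TTTAAA), which MuvB complexes bind, and the E2F letters, which are TTCCCGC or a variant of it, namely TTCGCGC, then also TTGCCGC, and finally TTGGCGC. Matches of different motifs may overlap, as the CCAAT box and E2F letters of E2f8 do, and then count for each. The windows are chr9:109875329-109875578 for Cdc25a (plus strand), chr7:48881597-48881846 for E2f8 (minus), chr11:98907901-98908150 for Cdc6 (plus) and chr2:48950082-48950331 for Orc4 (minus). Those of the mitosis genes are chr4:118437344-118437593 for Cdc20 (minus), chr9:122950831-122951080 for Kif15 (plus) and chr10:69352913-69353162 for Cdk1 (minus).
Cdc25a: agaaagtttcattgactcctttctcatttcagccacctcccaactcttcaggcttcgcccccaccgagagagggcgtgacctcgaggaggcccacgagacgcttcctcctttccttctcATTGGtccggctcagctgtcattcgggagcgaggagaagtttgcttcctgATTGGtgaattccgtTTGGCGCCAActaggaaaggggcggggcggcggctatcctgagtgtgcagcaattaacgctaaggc
E2f8: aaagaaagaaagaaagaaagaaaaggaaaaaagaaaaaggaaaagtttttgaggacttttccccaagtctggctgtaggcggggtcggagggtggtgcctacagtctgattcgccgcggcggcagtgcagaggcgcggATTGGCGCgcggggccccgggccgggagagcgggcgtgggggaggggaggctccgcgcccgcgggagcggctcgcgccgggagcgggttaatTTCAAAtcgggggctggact
Cdc6: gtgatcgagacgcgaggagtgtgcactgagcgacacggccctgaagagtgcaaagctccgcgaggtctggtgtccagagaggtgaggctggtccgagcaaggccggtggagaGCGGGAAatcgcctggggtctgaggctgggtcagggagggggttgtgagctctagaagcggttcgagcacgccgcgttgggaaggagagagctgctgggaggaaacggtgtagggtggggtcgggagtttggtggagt
Orc4: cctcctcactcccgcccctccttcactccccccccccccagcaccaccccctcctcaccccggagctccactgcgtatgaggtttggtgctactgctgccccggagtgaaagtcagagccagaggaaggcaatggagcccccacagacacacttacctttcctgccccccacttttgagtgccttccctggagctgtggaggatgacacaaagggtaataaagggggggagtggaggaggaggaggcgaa
Cdc20: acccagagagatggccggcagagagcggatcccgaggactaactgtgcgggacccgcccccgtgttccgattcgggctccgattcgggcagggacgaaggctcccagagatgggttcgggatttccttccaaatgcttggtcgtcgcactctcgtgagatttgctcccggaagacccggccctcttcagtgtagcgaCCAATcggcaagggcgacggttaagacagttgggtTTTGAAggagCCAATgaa
Kif15: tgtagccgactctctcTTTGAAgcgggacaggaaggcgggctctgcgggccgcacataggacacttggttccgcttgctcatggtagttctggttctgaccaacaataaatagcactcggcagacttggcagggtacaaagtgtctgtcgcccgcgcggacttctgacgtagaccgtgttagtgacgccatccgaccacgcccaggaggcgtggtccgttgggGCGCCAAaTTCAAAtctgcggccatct
Cdk1: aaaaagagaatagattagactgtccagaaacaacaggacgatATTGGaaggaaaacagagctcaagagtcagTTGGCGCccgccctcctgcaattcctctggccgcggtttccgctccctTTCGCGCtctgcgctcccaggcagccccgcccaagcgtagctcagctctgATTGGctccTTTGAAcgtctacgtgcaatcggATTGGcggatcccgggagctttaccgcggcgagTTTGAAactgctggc

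The Cdk1 window held 3 CCAAT boxes, 2 CHR matches and 2 E2F matches, with a CHR match that begins 15 bases before the start. Cdc20 had a CHR match 18 bases before the start and CCAAT boxes 53 and 8 bases before it. Kif15 paired a CHR match at 19 bases with E2F letters at 27 bases. Among the G1 genes, E2f8 had a CHR match at 20 bases, and Cdc25a had none. Cdc25a held CCAAT boxes at 131 and 81 bases and overlapping E2F matches at 66 and 63 bases. Cdc6 held an E2F match alone, 138 bases before the start, and the first of 3 listed Orc4 windows held no match of any kind.

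The share of promoters with each motif was counted by family. Promoters were listed for 105 of 123 members, 74 of them in the 3 phases. The first listed window was used, from 250 bases before to 50 after the start. A CHR match was present in 26 of 45 mitosis promoters (57.8%), 4 of 17 S promoters (23.5%) and 3 of 12 G1 promoters (25%), against 27.8% of all 27025 promoters of the same length. E2F letters were present in 9 of 17 S promoters (52.9%), 6 of 12 G1 promoters (50%) and 12 of 45 mitosis promoters (26.7%), against 9.69% of all promoters. CCAAT boxes were found in 70.6% of S, 66.7% of mitosis and 50% of G1 promoters, against 37.9% of all. A CCAAT box and a CHR match stood together in 19 of 45 mitosis promoters (42.2%), against 10.9% of all. The kinesins outside the mitosis family had a CHR match in 2 of 20 promoters and E2F letters in 3 of 20, and the Cdk genes outside the phases in 2 and 0 of 11. Few promoters stand behind each share, and the Wilson intervals, which allow for this, overlapped between the 3 phases for every motif. For CHR they were 43.3% to 71.0% in mitosis, 9.56% to 47.3% in S and 8.89% to 53.2% in G1. For CCAAT boxes they were 52.1% to 78.6% in mitosis, 46.9% to 86.7% in S and 25.4% to 74.6% in G1. A match describes these letters and is no proof of a bound site, and no test was made on these shares. Members with no listed window in the 3 phases were Ccnd1, Ccnd2, E2f4, E2f5, Mcm4, Aurkb, Ccna2, Cdc25c and Kif20a.

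Sample 1 stood apart in sex-linked genes, with Xist at 9.78 against 3.43 and 3.49 and the Y-linked Eif2s3y at 3.86 against 8.51 and 8.71. Results are therefore also given without it where they move. Dicer1 itself was at 8.10, 8.10 and 8.08, which checks no label, since 1 genotype was measured and the place of the probes in the gene is not known.

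Nearly all phase genes were measured above background in every sample. The G1 family had 16 of 16 members detected on all 3 arrays, the S family 17 of 18 and the mitosis family 46 of 49, against 60.5% of 20662 named genes. A gene was called detected where its value exceeded, on each array, the 95th percentile of a reference of 1433 probe sets for sensory receptors (olfactory, vomeronasal or taste), which stood at 5.16, 5.11 and 5.21 in samples 1 to 3. By the choice of this level few receptor genes can pass, and 4.21% of them did on all 3 arrays, which does not test the level. Outside the phases, 12 of 15 Cdk genes and 19 of 25 kinesins were detected. With the 99th percentile as the level, which lay between 6.37 and 6.59, 11 of 16 G1, 10 of 18 S and 29 of 49 mitosis members passed. Values between the 2 levels are therefore less secure. The share of all named genes at the 99th percentile was not computed, and the 60.5% belongs to the 95th percentile alone.

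**Figure D1:**
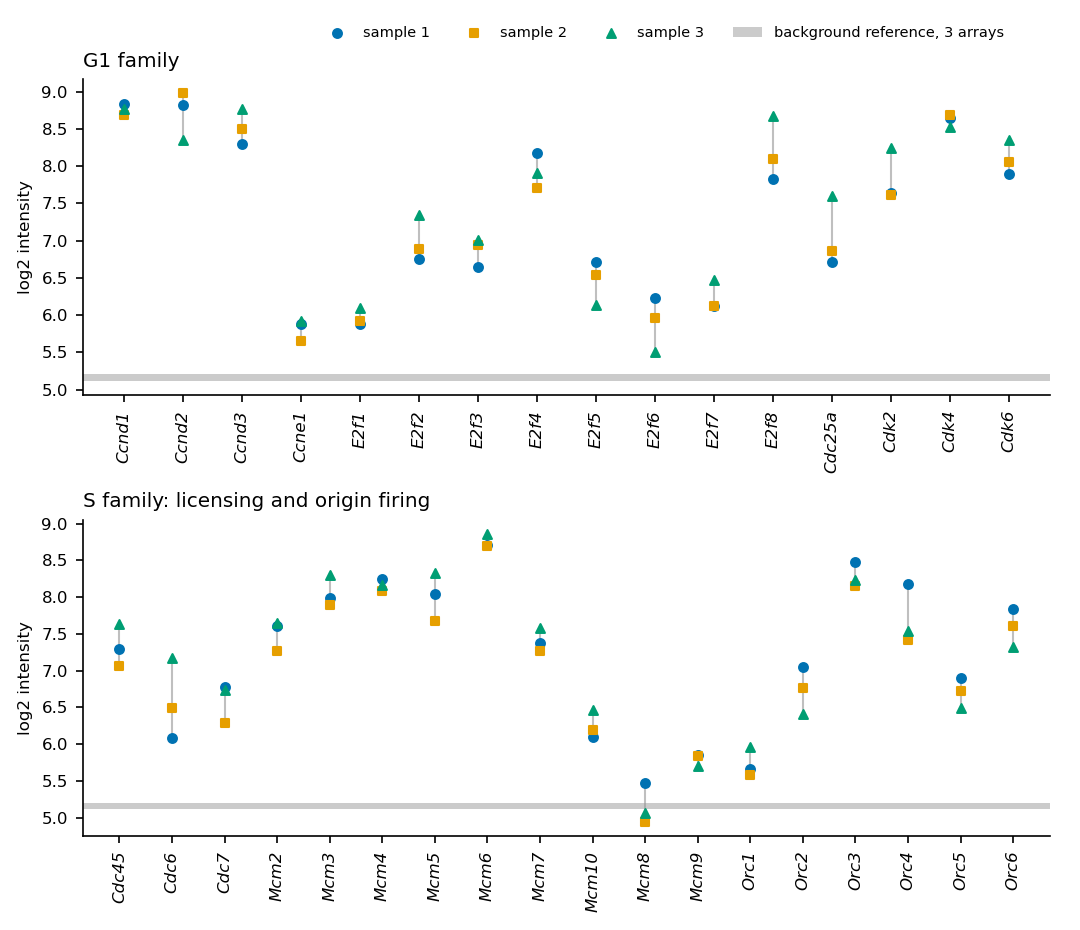
Log2 intensity (vertical axis) of each G1 gene (top) and S phase gene (bottom) in sample 1 (circle), sample 2 (square) and sample 3 (triangle), with a grey line from the lowest to the highest sample and a grey band for the background reference of the 3 arrays. All G1 genes lie above the band in every sample. Mcm8 is the S phase gene that falls below it in samples 2 and 3, and Cdc6 has the widest line, from 6.08 in sample 1 to 7.17 in sample 3.

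In RNA from a mixed sort, fewer dividing cells and less of an RNA per cell cannot be told apart. In G1, Cdk2, Cdk6, Cdc25a and 5 of 8 E2f genes were highest in sample 3, and the cyclins had no common order. Of all genes detected on 3 arrays, 32.8% were highest in sample 3. Ccnd1, a D cyclin that couples growth signals to the cycle, was at 8.83, 8.68 and 8.77 in samples 1 to 3 (mean 8.76 ± 0.075, SD, n = 3). Ccnd2, its close relative, was at 8.83, 8.98 and 8.35, and Ccnd3 ran the other way at 8.30, 8.50 and 8.77. Sample 3 was therefore the lowest for Ccnd2 and the highest for Ccnd3, with ranges (highest minus lowest sample) of 0.62 and 0.47. Ccne1, the E cyclin that partners Cdk2, was at 5.89, 5.66 and 5.92, close above background.

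Among the kinases, Cdk4, a partner of the D cyclins, had the smallest range and was highest in sample 2, at 8.65, 8.68 and 8.53 (mean 8.62 ± 0.083, SD, n = 3). Cdk6, which binds the same D cyclins, stood at 7.90, 8.06 and 8.35. Cdk2 was at 7.64, 7.61 and 8.24 (mean 7.83 ± 0.36, SD, n = 3), so that sample 3 stood apart from a close pair. Cdc25a, the phosphatase that switches Cdk2 on, had the widest range of the G1 genes at 0.88, with 6.72, 6.87 and 7.60. Over these 4 genes the median difference was 0.53 between samples 3 and 1 and 0.46 between samples 3 and 2.

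The E2f genes did not share an order, and repressors stood on both sides. E2f1, E2f2 and E2f3 are the activators that turn on replication genes. E2f1 was at 5.88, 5.93 and 6.09, E2f2 at 6.76, 6.89 and 7.35, and E2f3 at 6.64, 6.94 and 7.01. The atypical repressors E2f7 and E2f8, themselves E2F targets, had the same top sample, with E2f7 at 6.12, 6.12 and 6.48 and E2f8 at 7.82, 8.09 and 8.67. All 5 were thus highest in sample 3. E2f4 and E2f5, which repress with the retinoblastoma relatives, and the repressor E2f6 were instead highest in sample 1. E2f4 was at 8.18, 7.71 and 7.91, E2f5 at 6.72, 6.54 and 6.14, and E2f6 at 6.24, 5.97 and 5.50. E2f1, E2f6 and E2f7 lay below the 99th percentile of the receptor reference in every sample, and E2f5 did in samples 2 and 3. Their orders are therefore less secure. Within the family 10 of 16 genes were highest in sample 3 (background 32.8%), 4 in sample 1 (background 29.2%) and 2 in sample 2 (background 32.1%), where the background is the share of all genes detected on 3 arrays. The lowest sample was 1 for 7 genes (background 30.7%), 2 for 4 (background 29.7%) and 3 for 4 (background 33.5%).

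In S phase, the Mcm ring and the Orc subunits had different orders over the samples. Of 17 detected S genes, 9 were highest in sample 3 (background 32.8%), 8 in sample 1 (background 29.2%) and 0 in sample 2, and 11 were lowest in sample 2 (background 29.7%), so samples 1 and 3 were nearly tied. Mcm2 to Mcm7, the 6 subunits of the helicase ring, were lowest in sample 2 in 6 of 6 cases (background 29.7%) and highest in sample 3 in 5 of 6 (background 32.8%). Mcm5 had the widest range, at 8.04, 7.67 and 8.33 (mean 8.01 ± 0.33, SD, n = 3). Mcm2 was at 7.61, 7.27 and 7.65, Mcm3 at 7.99, 7.90 and 8.31, and Mcm7 at 7.38, 7.27 and 7.58. Mcm4 was the exception at the top, with 8.24, 8.09 and 8.16, and Mcm6 hardly moved, at 8.71, 8.69 and 8.86. The median difference of the ring was 0.35 between samples 3 and 2 but 0.17 between samples 3 and 1.

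Of the Mcm genes outside the ring, Mcm10, which helps start the fork, was at 6.10, 6.19 and 6.47. Mcm9, a repair helicase, was at 5.85, 5.84 and 5.70. Its partner Mcm8 passed detection in sample 1 alone, at 5.47, against 4.95 and 5.07 in samples 2 and 3.

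Of the 6 Orc genes, 5 were highest in sample 1 (background 29.2%) and Orc1 in sample 3. Orc2 was at 7.05, 6.76 and 6.41, Orc5 at 6.90, 6.73 and 6.49, and Orc6 at 7.84, 7.61 and 7.33. These 3 were lowest in sample 3, where Cdc6 was highest. Orc4 had the widest range of the complex, 0.76, with 8.18 in sample 1 against 7.42 and 7.54, and Orc3 was at 8.48, 8.15 and 8.24. Orc1, the subunit whose gene is a known E2F target, was at 5.66, 5.58 and 5.97.

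Cdc6, the factor that loads the Mcm ring, was the only member of the 123 with a range above 1, at 6.08, 6.49 and 7.17 (mean 6.58 ± 0.55, SD, n = 3). This is a 2.13-fold span, and the values in samples 1 and 2 lie below the 99th percentile of the receptor reference. Among all genes detected on at least 1 array, 5.70% had a range above 1. Leaving out sample 1 or sample 3 brought Cdc6 under that limit. Cdc7, the kinase that fires origins, was at 6.77, 6.29 and 6.74, and Cdc45, a helicase cofactor, at 7.30, 7.06 and 7.63. Both were lowest in sample 2.

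**Figure D2:**
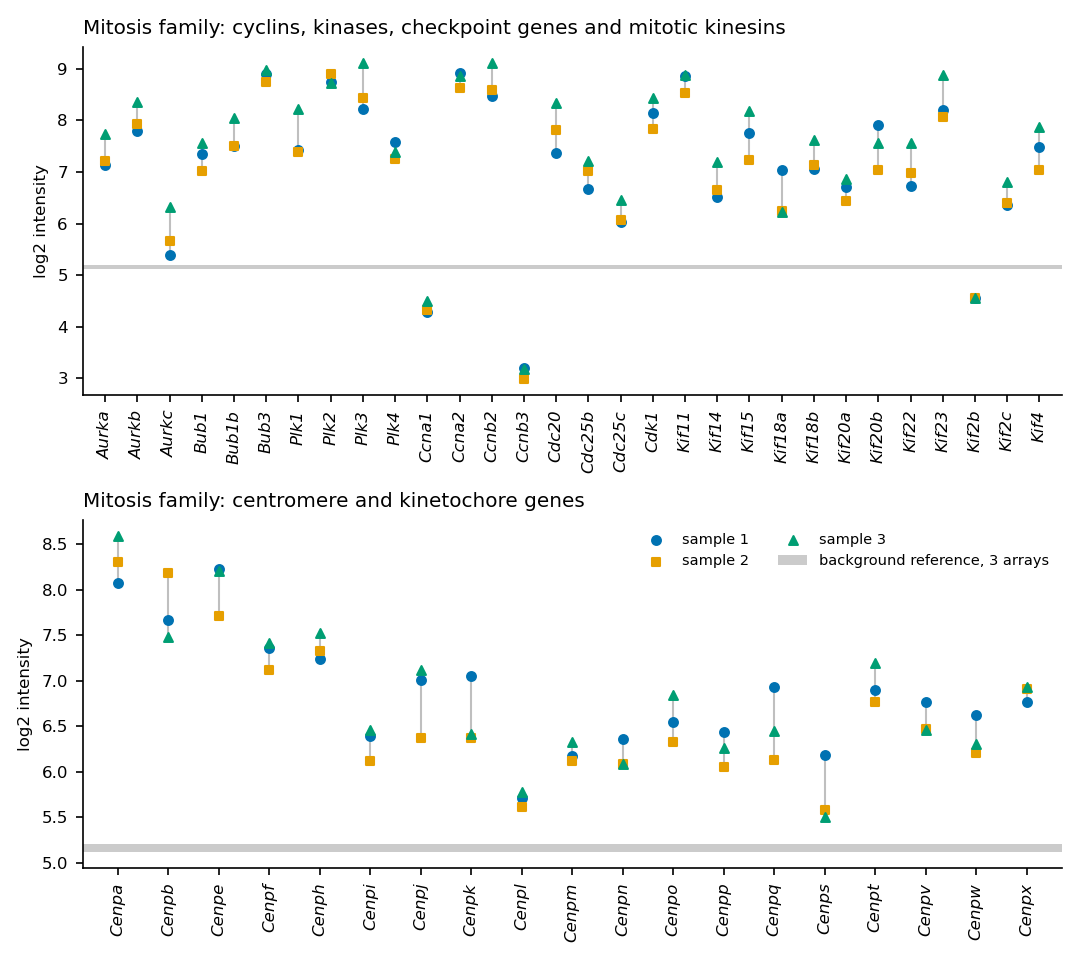
Log2 intensity (vertical axis) of each mitosis gene in the 3 samples, with markers and grey band as in the plot of G1 and S genes: kinases, cyclins, checkpoint genes and mitotic kinesins above, centromere genes below. Triangles (sample 3) top most columns of the upper panel, while in the lower panel 8 genes are topped by sample 1. Ccna1, Ccnb3 and Kif2b lie below the band.

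The mitosis genes were highest in sample 3 more often than in any other sample, and lowest in sample 2. Of 46 detected members, 32 were highest in sample 3 (background 32.8%), 12 in sample 1 (background 29.2%) and 2 in sample 2 (background 32.1%), and 24 were lowest in sample 2 (background 29.7%), 16 in sample 1 (background 30.7%) and 5 in sample 3 (background 33.5%). Sample 3 exceeded sample 2 in 40 of 46 (background 47.9%) and sample 1 in 32 of 46 (background 47.1%). The differences were small, with medians of 0.40 and 0.18, and no member had a range above 1 (background 5.70%). The median range of the detected members was 0.54, against 0.31 for all named genes detected on at least 1 array. No test was made: each sample has 1 array and the group is single, so a shift of the sample cannot be told apart from a shift of its array.

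Among the regulators of mitotic entry, Cdk1, the mitotic kinase, was at 8.15, 7.83 and 8.43 (mean 8.14 ± 0.30, SD, n = 3). Its partner Ccnb2 was at 8.47, 8.59 and 9.12, and Ccna2, which acts in S phase and G2, at 8.91, 8.64 and 8.85. Cdk1 and Ccnb2 were highest in sample 3 and Ccna2 in sample 1, although samples 1 and 3 lay close for Ccna2. The phosphatases that activate Cdk1, Cdc25b and Cdc25c, were at 6.67, 7.02 and 7.21 and at 6.03, 6.07 and 6.47. Cdc20, which switches on the anaphase-promoting complex, had the widest range of the family, 0.96, with 7.38, 7.82 and 8.33 (mean 7.84 ± 0.48, SD, n = 3). Ccna1 (4.29, 4.32 and 4.51) and Ccnb3 (3.21, 2.98 and 3.18), cyclins known chiefly from germ cells, were not detected on any array.

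The Aurora kinases shared 1 order, lowest in sample 1 and highest in sample 3. Aurka, the spindle pole kinase, was at 7.14, 7.21 and 7.73, and Aurkb, the centromere kinase, at 7.80, 7.92 and 8.36. Aurkc, best known from germ cells, was at 5.40, 5.67 and 6.32, near background, and its second probe set, with a mean of 4.40, did not follow this order. The Bub genes of the spindle checkpoint were also highest in sample 3, with Bub1 at 7.36, 7.02 and 7.56, Bub1b at 7.50, 7.51 and 8.04, and Bub3 at 8.90, 8.74 and 8.97.

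The Polo-like kinases differed among themselves. Plk1, which acts through mitosis, was at 7.42, 7.39 and 8.23 (mean 7.68 ± 0.48, SD, n = 3), a close pair with sample 3 above it. Plk3, a stress-responsive member, was at 8.22, 8.44 and 9.11. Plk2, also induced by stress, hardly moved, at 8.75, 8.90 and 8.72, and Plk4, which copies centrioles, was highest in sample 1, at 7.58, 7.26 and 7.38.

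Mitotic kinesins, the motors of spindle and cytokinesis, were highest in sample 3 in 9 of 11 detected members (background 32.8%). Kif15, a spindle motor, had the widest range at 0.95, with 7.76, 7.23 and 8.19 (mean 7.73 ± 0.48, SD, n = 3). Kif22, which pushes chromosome arms, was at 6.74, 6.97 and 7.57. Kif20b, a cytokinesis motor, was at 7.91, 7.03 and 7.57 and with Kif18a an exception, highest in sample 1. Kif2b had the same value, 4.56, on all 3 arrays and was not detected.

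The centromere genes were split between the samples, with 10 of 19 highest in sample 3 (background 32.8%) and 8 of 19 highest in sample 1 (background 29.2%). Cenpa, the histone that marks the centromere, was at 8.07, 8.30 and 8.59, and Cenpf, a kinetochore protein of G2 and mitosis, at 7.36, 7.12 and 7.42. Cenpe, a kinetochore motor, was at 8.23, 7.71 and 8.21, so samples 1 and 3 were close and sample 2 low. Cenpq, an inner kinetochore subunit, had the widest range, 0.80, at 6.93, 6.13 and 6.44. Cenpj, which builds centrioles, was at 7.005, 6.37 and 7.12. Cenpb, which binds a satellite DNA motif, was the only one highest in sample 2, at 7.67, 8.18 and 7.48. Sample 2 was the lowest in 12 of 19 (background 29.7%).

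**Figure D3:**
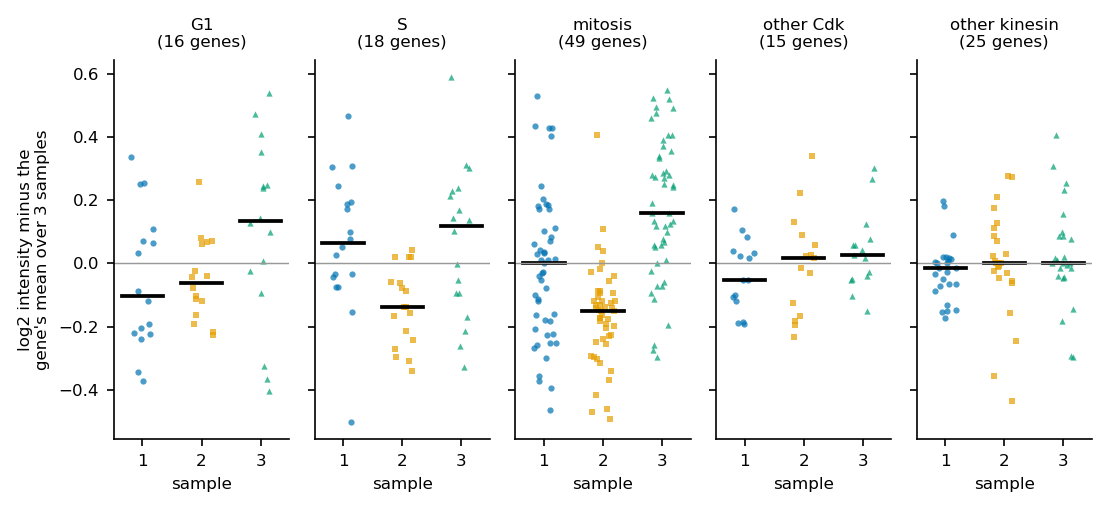
For each family, every point is 1 gene's log2 intensity in a sample minus that gene's mean over the 3 samples (vertical axis), by sample (horizontal axis), and black bars are medians over the family. The mitosis medians are 0, -0.15 and 0.16 for samples 1 to 3, while those of the Cdk genes and kinesins outside the phases stay between -0.051 and 0.027.

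As families, the 3 phases each had their highest median in sample 3, by small amounts. The median deviation from the gene's own mean in samples 1 to 3 was -0.10, -0.061 and 0.13 for G1, 0.065, -0.14 and 0.12 for S, and 0, -0.15 and 0.16 for mitosis. For all named genes these medians were -0.0050, 0 and 0.00095. The span of the medians was 1.18-fold for G1, 1.20-fold for S and 1.24-fold for mitosis. Members of a family are not replicates, and a difference between the families' shifts was not tested. Without sample 1, the median deviation of sample 3 was 0.12 for G1, 0.11 for S and 0.18 for mitosis, each from its mean with sample 2. Without sample 2, it was 0.14 for G1, 0.080 for mitosis and 0.0024 for S, so the positive shift of the S family in sample 3 rests on sample 2. Without sample 3, the deviation of sample 1 was -0.019 for G1, 0.099 for S and 0.069 for mitosis.

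The relatives of these genes that were assigned to no phase had smaller medians. The 15 Cdk genes outside the phases, many of which act in transcription or signalling, had medians of -0.051, 0.019 and 0.027. Of these, 3 of 12 detected (25%) were highest in sample 3, near the 32.8% of all detected genes. Cdk9, which releases paused RNA polymerase, was at 6.93, 6.84 and 7.33, and Cdk19, a Mediator kinase, at 8.52, 8.45 and 8.88. Cdk20 was at 5.17, 5.70 and 5.20 and passed detection on 2 arrays. Cdk3 and Cdk15 were not detected on any array.

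The 25 kinesins outside the mitosis family, many of which serve transport, cilia or signalling, had medians of -0.016, 0 and 0.0022. Of these, 5 of 19 detected (26.3%) were highest in sample 3, also near the 32.8% of all detected genes. Kif21b, a motor of neurons and immune cells, had the widest range, 0.76, at 8.13, 7.82 and 8.58. Kif26b, an atypical kinesin, was at 6.24, 5.62 and 6.31. Kif1b, a cargo motor, was at 7.62, 7.87 and 7.30, with sample 2 on top. The ubiquitous Kif5b was at 9.38, 9.13 and 9.04, and its second probe set had the same order at 8.88, 8.45 and 8.10. Kif5a, Kif6, Kif9, Kif12, Kif17 and Kif27 were not detected on any array. Kif19a and Kif24 had identical values on the 3 arrays, as did Kif2b, and 13 of the 123 members had at least 2 exactly equal values, so their SD may understate the spread.

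Other cell cycle genes, from lists outside the naming pattern, were also most often highest in sample 3. Rfc4, Ccnf and Pkmyt1 of these lists were not analysed here. Of 14 measured S phase genes, 9 were highest in sample 3 (background 32.8%) and 5 in sample 1 (background 29.2%), and 9 were lowest in sample 2 (background 29.7%). Pcna, the sliding clamp of replication, was at 10.89, 10.61 and 10.63, and Tk1, a thymidine kinase, at 7.68, 7.72 and 8.39. Of 15 mitosis genes, 9 were highest in sample 3 (background 32.8%) and 6 in sample 1 (background 29.2%), and all 15 were higher in sample 3 than in sample 2 (background 47.9%). Mki67, a marker of dividing cells, was at 9.88, 9.65 and 10.07, Top2a, which untangles chromosomes, at 9.35, 9.12 and 9.44, and Ttk, a checkpoint kinase, at 7.41, 6.47 and 7.29. The medians were -0.0024, -0.11 and 0.13 for the S phase list and 0.044, -0.21 and 0.14 for the mitosis list. Every measured gene of both was detected on every array, against 60.5% of named genes.

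The brakes of the cycle, listed here with E2F partners that are not brakes, were detected in the same samples. Of 14 measured inhibitors, retinoblastoma proteins and E2F partners, 14 were detected (background 60.5%) and none had a range above 1 (background 5.70%). Their medians were -0.0070, -0.10 and 0.083. In this list 7 were highest in sample 3 (background 32.8%), 5 in sample 1 (background 29.2%) and 2 in sample 2 (background 32.1%). The lowest sample was 2 for 10 genes (background 29.7%) and 1 for 4 (background 30.7%). A high sample 3 and a low sample 2 were thus also common in this list. Since it mixes inhibitors with E2F partners, it is no contrast to the genes that drive the cycle. Cdkn1a, the p53-induced inhibitor p21, was at 10.80, 11.10 and 11.10, and Cdkn1b at 9.40, 9.31 and 9.57. Cdkn1c moved most, at 6.31, 7.25 and 6.93, lowest in sample 1 and highest in sample 2. Wee1, the kinase that holds Cdk1 inactive, had the same order at 6.95, 7.45 and 7.21. Cdkn2a, which encodes p16 and ARF, was at 5.71, 5.57 and 5.85, below the 99th percentile of the receptor reference. The values of Rb1 were 9.42, 9.29 and 9.48.

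**Figure D4:**
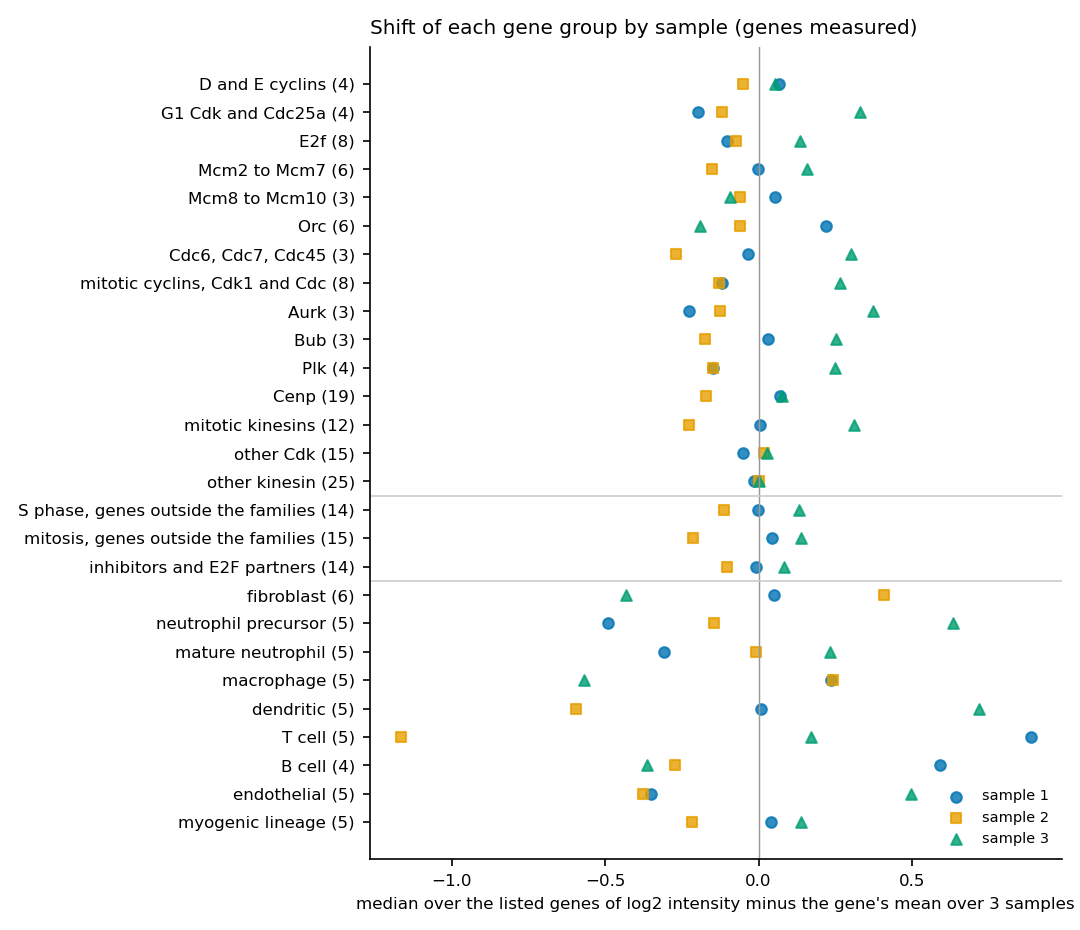
Median over each gene group of the log2 intensity minus the gene's mean over 3 samples (horizontal axis), for sub-families of the cell cycle genes (top), other cell cycle genes (middle) and cell type markers (bottom), with the number of genes in brackets. Aurora kinases and mitotic kinesins lie to the right in sample 3 and Orc genes in sample 1, and the shifts of several marker groups are larger than those of any cell cycle group.

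Markers of several cell types moved between the samples by more than the cell cycle genes did. Neutrophil precursor genes, which encode granule proteins of immature granulocytes, peaked in sample 3 in 5 of 5 (background 32.8%). All 5 had their minimum in sample 1 (background 30.7%). Elane was at 9.33, 9.93 and 10.81 and Mpo at 9.75, 10.56 and 10.99. The median deviations of this list were -0.49, -0.15 and 0.63. Dendritic cell genes peaked in sample 3 in 5 of 5 (background 32.8%) and were at their minimum in sample 2 (background 29.7%). Their medians were 0.0087, -0.60 and 0.72. T cell genes had medians of 0.89, -1.17 and 0.17 and were lowest in sample 2 in 5 of 5 (background 29.7%). B cell genes were highest in sample 1 in 4 of 4 (background 29.2%), with medians of 0.59, -0.27 and -0.36. Mature neutrophil genes had medians of -0.31, -0.0090 and 0.23, and macrophage genes of 0.23, 0.24 and -0.57. Fibroblast genes had their top value in sample 2 (background 32.1%) and their bottom value in sample 3 (background 33.5%) in 6 of 6. Their medians were 0.050, 0.41 and -0.43.

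All measured members of the fibroblast, macrophage, dendritic, T cell, B cell and both neutrophil lists were detected on the 3 arrays, against 60.5% of named genes. Cd3g, a T cell receptor subunit, was close to background in sample 2, at 8.42, 5.14 and 7.33. Markers of the endothelium that the sort should remove reached detection in 4 of 5 (background 60.5%), with medians of -0.35, -0.38 and 0.50. Markers of the myogenic lineage reached it in 4 of 5 (background 60.5%), with medians of 0.041, -0.22 and 0.14. Of 5 erythroid markers, Klf1 alone was measured, at 5.65, 5.95 and 5.11. The part of any of these cell types in the cell cycle values was not tested.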

How the data were processed

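The deposited values are log2 intensities, 1 column per array, normalized by the authors in a way not given in the sources used here. Partek is named, without a version, per the submitters' processing notes. RNA was labelled with biotin by the standard Affymetrix protocol, per the labels' protocols. The number of arrays, 3, limits the precision.

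Of 31873 probe sets, the 23094 with exactly 1 symbol were used. Detection, range and family shift were computed with Python 3.11.15 and pandas 2.3.3. The range limit was 1, and the shift is the median over members of a sample's value minus the gene's mean. As an alternative, detection was tested with limma 3.58.1 in R 4.3.3 at an adjusted p of 0.05. The range, shift and limma steps were run on simulated data with changes far larger than the family shifts given here. Shifts of the size reported were not checked in this way. Promoters are RefSeq windows of 300 bases.

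Values are given for every G1 and S gene, for mitotic cyclins, Cdk1, Cdc, Aurk, Bub and Plk genes, Cenpa, Cenpe and Cenpf, and for the 3 widest ranges in each other group. The members and lists were chosen with earlier results of these data known. With 1 group, no conditions were compared.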

Additional observations from a re-analysis of the deposited data

How the results depend on the processing

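No paired analysis was possible because there is only 1 group of samples. With the 99th percentile of the receptor reference as the detection level, 10 of 18 S members, 29 of 49 mitosis members and 10 of 25 other kinesins passed. The share of all named genes at this level was not computed. With a range limit of 0.5, 7 of 16 G1, 7 of 18 S and 27 of 46 mitosis members detected on at least 1 array exceeded it (background 26.8%). Outside the phases, 1 of 13 Cdk genes and 4 of 19 kinesins did. Leaving out each sample in turn left 0 to 1 S members with a range above 1. It gave shifts of -0.0056 to 0.0079 for the other Cdk genes in sample 1, and of 0 to 0.020 in sample 2 and 0 to 0.023 in sample 3 for the other kinesins. For G1 the shifts ran from -0.14 to -0.019 in sample 1, from -0.12 to 0.019 in sample 2, which turned sign, and from 0.12 to 0.14 in sample 3. For S they ran from -0.0024 to 0.099 in sample 1, which turned sign, from -0.11 to -0.099 in sample 2 and from 0.0024 to 0.11 in sample 3. For mitosis they ran from -0.080 to 0.069 in sample 1, which took both signs, from -0.18 to -0.069 in sample 2 and from 0.080 to 0.18 in sample 3. The shift of the other kinesins was 0.027 in sample 3 as a mean over members, 0.010 in sample 2 after quantile normalization, and 0.0049 in sample 1 and -0.0096 in sample 3 with arrays centred on their medians. The cause was not tested. The limma test changed no detection count by over 1.5 times. Counts of members highest in sample 3, under alternatives chosen after seeing the data, were 10 of 16 for G1, 9 of 17 for S and 31 to 32 of 45 or 46 for mitosis. The share of all genes was 32.8% in the main analysis and was not computed under these alternatives. The alternative that averaged probe sets could not change the G1 and S counts, since none of their members has a second probe set.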
